A study of Mus musculus with 16 samples.

Results

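Open chromatin of mouse fibroblasts in chemical reprogramming was compared between day 12 and day 10, the last days sampled before induced pluripotent stem cells (iPSC) were established. A region belonged to the comparison if it was in the day 12 or the day 10 peak list, on chromosomes 1 to 19, X or Y. There were 58278 such regions, of 165616 in the 8 lists of the whole series. A region was called kept if the lists shared at least 1 bp there, gained if it was in the day 12 list alone, and lost if it was in the day 10 list alone. These words name the state of the lists and no test.

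The series holds 16 samples, 2 for each of 8 stages: day 0 fibroblasts, days 2, 4, 6, 8, 10 and 12, and iPSC. Day 12 cells and day 10 cells both carried the strain label 129XOG2 and were labelled as reprogramming intermediates. Both came from OG2 embryonic fibroblasts of passages 1 to 3, taken from E13.5 embryos and moved to reprogramming medium 1 day after plating, whose composition the labels do not list. OG2 mice carry a green fluorescent protein reporter driven by Pou5f1 sequence (background). The end points used as landmarks were iPSC, grown on feeder cells with LIF, CHIR99021 and PD0325901, and day 0 fibroblasts. The authors deposited 1 peak list per stage, so the spread between replicates is unknown, and the days are compared without a test or p-values. Intervals are exact Clopper-Pearson 95% intervals and cover counting error only. Bulk cultures were measured, so that fewer cells of a type cannot be told apart from less open DNA per cell.

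ATAC-seq uses the Tn5 transposase, which inserts sequencing adapters where DNA is not held by nucleosomes, so that promoters and enhancers in use give peaks of reads. Chemical reprogramming of mouse fibroblasts is known, in several protocols, to pass through cells with epithelial and extraembryonic endoderm-like genes before the pluripotency network of Pou5f1, Sox2 and Nanog is switched on. In that passage fibroblast enhancers close, enhancers of the intermediate cells open for a time, and enhancers of pluripotent cells open late.

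The lists differed in depth, and this bears on every count below. The day 12 list held 31865 peaks over 10.4 Mb and the day 10 list 43542 peaks over 22.6 Mb. The genome-wide background pileup, the number of reads or fragments stacked at an average position, was 0.248 at day 12 and 0.968 at day 10, a ratio of 0.257. The lowest summit pileup that made a peak was 3 at day 12, which 5317 peaks (16.7%) had, and 6 at day 10. Background was between 0.682 and 3.08 in the other 6 lists, so day 12 was the shallowest. Counts are therefore also given at equal list length, with the day 10 list cut to its 31865 best-scored peaks, and with day 10 pileups scaled down to the background of day 12, at which 27277 day 10 peaks (62.6%) still passed.

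Promoters of the kept, gained and lost classes are shown first, as RefSeq gives them on GRCm38.p6 (the chromosomes of mm10). They are written 5′ to 3′ on the gene's strand, from 250 bases before the start site to 50 after it. Zfp42 encodes the stem cell marker Rex1, and its promoter was kept. The promoter window of Pou5f1, which encodes the pluripotency factor Oct4, was in the day 12 list alone, as were 1.02% of all windows. A day 10 peak lay within 1 kb of its start. The windows of Foxa2, an endoderm pioneer factor gene, Cldn4, a tight junction gene, and Cyp26a1, which encodes a retinoic acid-degrading enzyme, were in the day 10 list alone. Capitals mark matches, on either strand, to short motifs searched in all windows.
Zfp42 (chr8:43306960-43307259, minus strand): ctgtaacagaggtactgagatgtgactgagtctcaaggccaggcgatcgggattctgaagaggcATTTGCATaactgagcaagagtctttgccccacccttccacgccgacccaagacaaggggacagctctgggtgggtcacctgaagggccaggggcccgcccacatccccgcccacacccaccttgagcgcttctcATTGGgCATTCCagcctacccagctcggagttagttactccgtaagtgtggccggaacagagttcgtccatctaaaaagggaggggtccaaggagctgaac
Pou5f1 (chr17:35505782-35506081, plus strand): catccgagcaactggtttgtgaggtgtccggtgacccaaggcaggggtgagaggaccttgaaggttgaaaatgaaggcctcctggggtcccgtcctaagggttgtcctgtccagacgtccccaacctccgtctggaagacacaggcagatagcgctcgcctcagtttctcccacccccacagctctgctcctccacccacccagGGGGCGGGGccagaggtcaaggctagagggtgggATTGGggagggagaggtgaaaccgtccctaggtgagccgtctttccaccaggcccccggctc
Foxa2 (chr2:148046920-148047219, minus strand): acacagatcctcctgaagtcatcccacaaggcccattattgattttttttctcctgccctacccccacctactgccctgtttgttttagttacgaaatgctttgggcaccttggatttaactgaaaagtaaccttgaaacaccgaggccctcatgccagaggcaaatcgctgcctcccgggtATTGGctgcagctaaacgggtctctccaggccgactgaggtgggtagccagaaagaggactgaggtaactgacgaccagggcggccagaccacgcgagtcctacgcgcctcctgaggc
Cldn4 (chr5:134946885-134947184, minus strand): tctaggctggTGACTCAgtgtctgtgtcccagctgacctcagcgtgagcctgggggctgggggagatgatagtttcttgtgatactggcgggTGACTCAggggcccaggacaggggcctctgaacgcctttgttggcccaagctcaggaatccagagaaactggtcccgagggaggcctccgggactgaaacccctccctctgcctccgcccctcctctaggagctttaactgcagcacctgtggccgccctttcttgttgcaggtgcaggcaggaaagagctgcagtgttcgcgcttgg
Cyp26a1 (chr19:37697558-37697857, plus strand): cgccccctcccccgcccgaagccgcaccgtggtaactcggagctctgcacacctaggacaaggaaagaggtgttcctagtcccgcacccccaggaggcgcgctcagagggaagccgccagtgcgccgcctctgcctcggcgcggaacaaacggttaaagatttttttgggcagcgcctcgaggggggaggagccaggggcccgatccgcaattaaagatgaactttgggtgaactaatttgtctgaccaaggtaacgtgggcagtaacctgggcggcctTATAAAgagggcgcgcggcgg

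In Zfp42 the capitals mark an octamer (ATGCAAAT), a CCAAT box (CCAAT) and a TEAD motif (GGAATG). In Pou5f1 they mark an SP motif (GGGGCGGGG) and a CCAAT box, and in Foxa2 a CCAAT box. In Cldn4 they mark a pair of AP-1 motifs (TGANTCA), and in Cyp26a1 a TATA box (TATAAA). Of all 21263 promoter windows, 1.66% held the octamer, 38.2% the CCAAT box, 13.6% the TEAD motif, 15.4% the SP motif, 6.99% the AP-1 motif and 12.6% the TATA box. A match is a description of these letters and not a bound site.

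The first question was how much of the open chromatin the 2 days shared. Of the 58278 regions, 16557 were kept (28.4%, 95% interval 28.0 to 28.8), 14770 were gained (25.3%) and 26951 were lost (46.2%). Put per day, 52.9% of the day 12 regions were also in the day 10 list and 38.1% of the day 10 regions were also in the day 12 list. The excess of lost over gained regions changed with the length of the lists. At equal list length 15554 regions were kept (32.7%), 15779 gained (33.1%) and 16297 lost (34.2%), and with day 10 scaled to the day 12 background 14710 (33.5%) were kept, 16632 (37.9%) gained and 12559 (28.6%) lost, so that gained regions then outnumbered lost ones by 4073. No direction of net change is therefore given.

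Sharing depended on how strong a peak was. Each list was split by score into 10 bins of equal size. In the best-scored bin of day 12 peaks, 96.9% (96.2 to 97.5) were in the day 10 list, and in the worst-scored bin 6.34% (5.52 to 7.24). In the best-scored bin of day 10 peaks 95.8% (95.2 to 96.4) were in the day 12 list, and in the worst-scored bin 5.46% (4.81 to 6.18). The best-scored bin of each list was thus nearly all shared, and sharing fell as scores fell. In bins 2, 3 and 4 of the day 10 peaks 80.5%, 60.3% and 43.9% were in the day 12 list. In the same bins of day 12 peaks 91.1%, 83.1% and 74.8% were in the day 10 list.

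**Figure D1:**
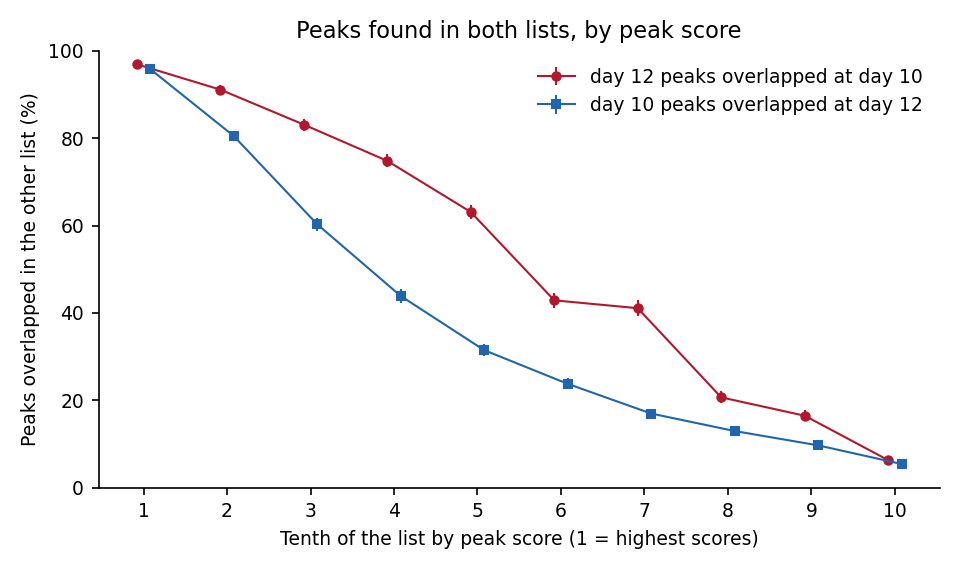
Share of peaks that overlapped a peak of the other list (vertical axis, percent, exact 95% intervals) by bin of peak score within the list (horizontal axis, 1 is the highest). Red circles are day 12 peaks, which go from 96.9% to 6.34%, and blue squares are day 10 peaks, which go from 95.8% to 5.46%.

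Kept regions mostly had nearby summits, with a lower and narrower peak at day 12. In the 15995 kept regions with 1 peak from each list, the summits lay a median of 50 bp apart and 71.8% lay within 100 bp. The median peak width was 338 bp at day 12 and 634 bp at day 10. The median summit pileup was 11 at day 12 and 33 at day 10. The median ratio per region was 0.345 (quartiles 0.262 and 0.467), and that of the backgrounds was 0.257. A ratio exists only where day 12 passed its own peak threshold, which leaves out low ratios, so they are not like measures. At kept gene ends with overlapping peaks the median ratio was 0.667 at a day 10 pileup of 6 to 9 and 0.291 at 40 to 59. Gained regions were narrow, with a median width of 215 bp, and 34.0% of them had the lowest pileup a day 12 peak could have. Lost regions had a median width of 347 bp and a median day 10 pileup of 12.

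The genomic place of the classes differed. Of kept regions 49.8% (49.0 to 50.5) lay at a gene end, meaning within 1 kb of where a protein-coding gene begins or stops. The share was 4.37% (4.04 to 4.71) for gained and 14.0% (13.6 to 14.4) for lost regions. Gained regions lay between genes in 55.1% and in gene bodies in 40.6%, and lost regions in 42.1% and 43.9%. Peaks at gene ends are also stronger, so the shares were taken at like pileup. Among day 10 peaks with a summit pileup of 30 to 39, 79.2% of those at gene ends, 56.7% of those in gene bodies and 58.6% of those between genes were found at day 12. Among day 12 peaks with a pileup of 5, 71.8% at gene ends, 29.7% in gene bodies and 23.6% between genes were found at day 10.

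The other 6 lists place the 3 classes in the time course. Kept regions were mostly open throughout: 87.2% were in the day 8 list, 71.8% in iPSC, 64.3% at day 0, and 53.1% in all 6 lists. Of lost regions 48.2% (47.6 to 48.8) were in the day 8 list, 30.4% (29.9 to 31.0) in iPSC and 28.9% (28.3 to 29.4) at day 0. Lost regions found at day 8 but neither at day 0 nor in iPSC made up 20.1%, and 30.5% of lost regions were in no other list.

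Gained regions were rarely seen at any other stage. Of the 14770, 11919 (80.7%, 80.1 to 81.3) were in no other list, 10.9% (10.4 to 11.4) were in iPSC, 4.95% at day 8 and 4.33% at day 0. The share found in iPSC was 5.48% among gained regions with a day 12 pileup of 3 and 22.0% (19.7 to 24.4) among those with a pileup of 8 to 11, where 11.5% were in the day 8 list. A set of 1003 gained regions (6.79%) was found in iPSC and in none of the lists of days 0 to 8, and 5.98% of these lay at gene ends.

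**Figure D2:**
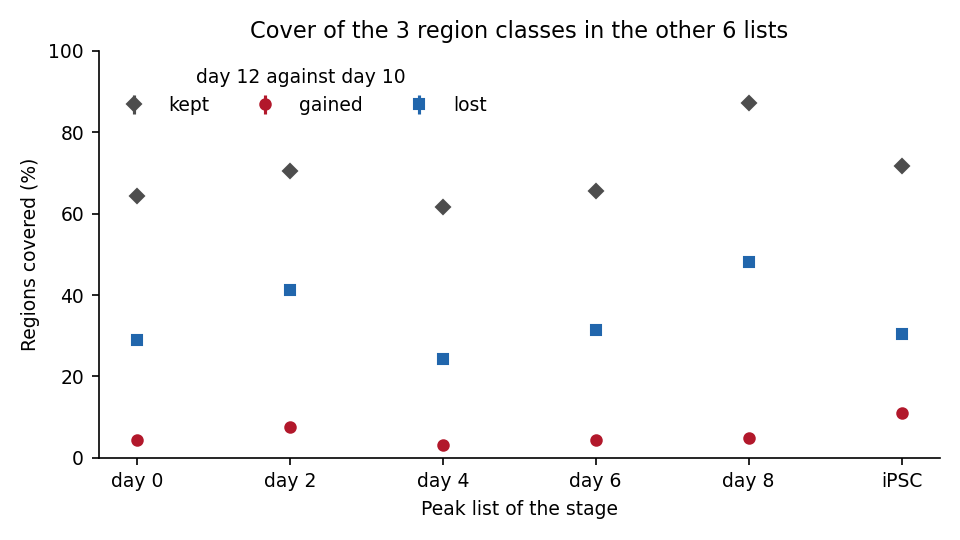
Share of kept (black diamonds), gained (red circles) and lost (blue squares) regions covered in each of the other 6 peak lists (vertical axis, percent, exact 95% intervals, smaller than the symbols), by stage. Kept regions lie above 60% at each stage, lost regions are highest at day 8 (48.2%) and gained regions are highest in iPSC (10.9%).

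Day 10 regions shared with iPSC alone were found again at day 12 more often than day 10 regions shared with day 0 fibroblasts alone. This comparison was chosen after the data were seen, and no test of it was run. Of 6022 day 10 regions that iPSC had and day 0 lacked, 2034 were kept (33.8%, 32.6 to 35.0). Of 4353 that day 0 had and iPSC lacked, 783 were kept (18.0%, 16.9 to 19.2). Regions of both end points were kept in 70.1% and regions of neither in 20.4%, beside 38.1% of all day 10 regions.

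Away from gene ends the order was the same at like strength up to a day 10 pileup of 59. With a day 10 pileup of 10 to 14, 19.9% (17.9 to 22.1) of the regions of iPSC alone and 7.89% (6.44 to 9.55) of those of day 0 alone were kept. With 20 to 29 the shares were 42.5% (39.3 to 45.8) and 23.7% (20.2 to 27.4), and with 40 to 59 they were 77.1% (71.7 to 81.9) and 67.0% (57.6 to 75.4), where the intervals overlap. Above that few regions were left: at 60 to 99, 45 of 48 regions of iPSC alone and 13 of 13 of day 0 alone were kept. Over all regions, the shares were 45.7% and 27.1% with day 10 scaled to the day 12 background. In 5 bins of day 10 score, again away from gene ends, regions of iPSC alone were kept more often in each bin, with 11.5% against 4.54% in the lowest and 62.9% against 44.5% in the highest. The iPSC and day 0 lists were close in length, with 49468 and 49632 peaks. Regions of neither end point were kept in 35.4% (33.5 to 37.3) with a day 10 pileup of 20 to 29.

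**Figure D3:**
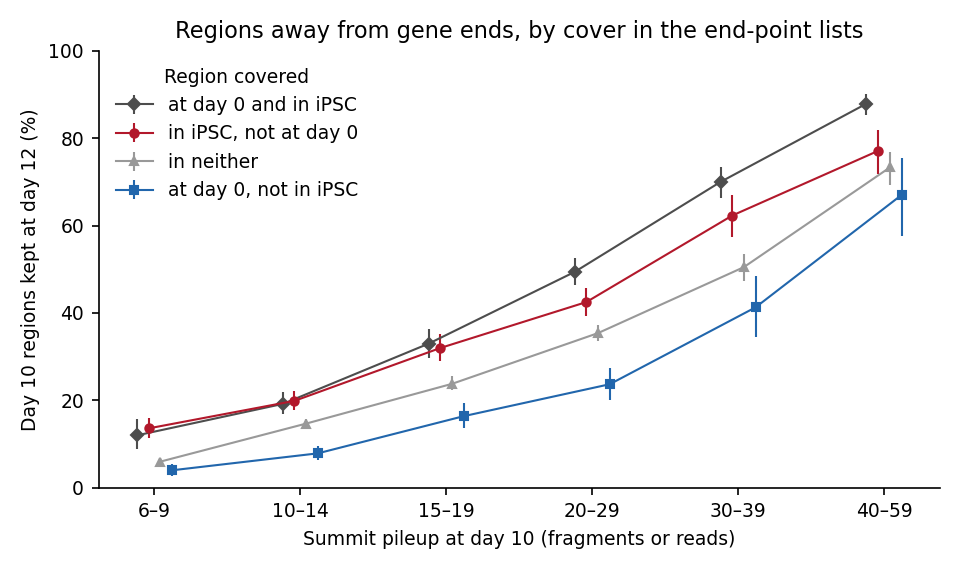
Share of day 10 regions away from gene ends that were also in the day 12 list (vertical axis, percent, exact 95% intervals), by day 10 summit pileup (horizontal axis) and by cover in the end-point lists. Regions of iPSC and not day 0 (red circles) lie above regions of day 0 and not iPSC (blue squares) in each bin drawn (up to a pileup of 59), 42.5% and 23.7% at a pileup of 20 to 29.

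Gene ends were then counted over all 21887 protein-coding genes. An end was kept at 9335 genes (42.7%), gained at 370 (1.69%) and lost at 3020 (13.8%), and 9162 had a peak on neither day. Lost ends were 24.4% of the ends covered at day 10, 20.7% at equal list length and 18.5% with day 10 scaled. Of all ends, 41.9% were kept, 2.46% gained and 10.9% lost at equal length, 40.9%, 3.39% and 9.29% with day 10 scaled, and 47.7%, 2.28% and 14.7% with a window of 2.5 kb. Loss followed peak height: 82.9% (79.1 to 86.2) of ends with a day 10 pileup of 6 to 9 were lost, 36.7% (34.6 to 38.8) at 20 to 29 and 1.38% (0.931 to 1.96) at 60 to 99. Of the lost ends 75.4% were covered in iPSC, and 76.3% at day 8. The lists of genes below are read against these shares, and each count is a description of single lists. Tfcp2l1, Ttr, Fosb, Sp5, Rxra, Rxrg, Crabp1, Ptprc, Csf1r and Adgre1 are named after their values were seen, and so are the ratios and single regions given below.

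Genes of naive pluripotency, the network of the early epiblast and of embryonic stem cells, had a share of lost ends near that of all genes. Of 16 genes, 9 ends were kept, 2 were lost (Sox2 and Prdm14) and 1 was gained (Dppa3), so 2 of 11 covered at day 10 were lost (18.2%), beside 24.4% of all. At equal list length, and with day 10 scaled, 1 of 9 was lost, Sox2. The end of Zfp42 had a summit pileup of 23 at day 12 and 18 at day 10 with peaks that overlapped, a ratio of 1.28, against a median of 0.317 over the 9006 kept ends with overlapping peaks. It stood at percentile 99.5 of ends with a similar day 10 pileup, and the end was covered at day 8 and in iPSC and on none of days 0 to 6. Klf4, a reprogramming factor, had pileups of 20 at day 12 and 44 at day 10, and Klf5, its relative in the stem cell network, 36 and 81. Klf2 had 19 at day 12 and 58 at day 10. Tfcp2l1, another naive factor, had 10 at day 12 and 49 at day 10, a ratio of 0.204, below the median of its strength.

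The Pou5f1 locus on chromosome 17 had its peaks at partly different places on the 2 days. Day 12 peaks lay upstream at chr17:35502531-35503019 (summit pileup 74) and chr17:35503892-35504262 (72), on the start site at chr17:35505812-35506016 (43), and in the 3′ part of the gene at chr17:35509531-35509845 (36). Day 10 peaks lay at chr17:35502562-35503041 (51), chr17:35503904-35504228 (43), inside the gene at chr17:35506689-35507096 (58), in its 3′ part at chr17:35509454-35509835 (44) and beyond the gene at chr17:35513447-35514544 (40). The upstream peaks thus had ratios of 1.45 and 1.67, against a median of 0.345 over all kept regions, and stood at the top of the kept regions of similar day 10 pileup. The start-site window printed above was covered at day 12 and not at day 10. The end of Pou5f1 nevertheless counted as kept, since the day 10 peak inside the gene lay within 1 kb of the start.

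A limit of that locus is its local background. It was 5.65 to 11.6 at the day 12 peaks, 22.8 to 46.7 times the background of that list, and 10.5 to 14.1 at the day 10 peaks, 10.9 to 14.5 times. Only 16 of the 31865 day 12 peaks had a local background of 10 or more, and 3 of them were at this locus. Reads from the Pou5f1 sequence of the OG2 reporter cannot be told apart from reads of the gene itself, and how the reporter bears on these pileups was not tested.

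Sox2, which encodes the partner of Oct4, had a day 10 peak with a pileup of 39 at chr3:34649621-34650013, over the annotated start, and no day 12 peak within 2.5 kb of either end. Scaled to the background of day 12 that pileup would be 10.0, and the local background at the day 10 peak was 3.38. Over all genes, 19.4% (17.8 to 21.0) of the ends with a day 10 pileup of 30 to 39 were lost. Whether depth accounts for the missing day 12 peak was not tested. The end of Sox2 was covered in all 6 other lists. A distal region nearest to Sox2, at chr3:34745100-34745559, was kept with pileups of 10 at day 12 and 22 at day 10. Nanog had no peak within 1 kb of its ends on either day, although iPSC did. Its upstream region at chr6:122702502-122703081 was kept with 24 at day 12 and 34 at day 10, a ratio of 0.706 at percentile 98.8 of its strength. Esrrb, an orphan nuclear receptor gene of the naive state, had no covered end, and a region in its body was kept with 20 at day 12 and 30 at day 10.

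Single regions of other naive genes were higher at day 12 than at day 10 in pileup. A region in the body of Tfcp2l1 had 17 at day 12 and 15 at day 10, and a region between genes nearest to Klf4 had 17 and 9. A region nearest to Prdm14, a repressor of differentiation in stem cells and germ cells, also had 17 at day 12 and 9 at day 10. The last 2 were found neither at day 0 nor in iPSC, and the end of Prdm14 itself was lost, from a day 10 pileup of 7. Over the 35 kept regions nearest to naive genes with 1 peak on each day, the median ratio was 0.444, beside 0.342 for the 15248 kept regions of all genes. Of the 35, 20 lay above the median of their day 10 strength, which is 57.1% beside 49.6% of all.

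Late pluripotency genes, which mark the last steps of reprogramming, were partly covered. Of 12 genes, 5 ends were kept, 2 lost (Sall4 and Dnmt3l), and 5 were in neither list, among them Lin28a, Dppa4 and Tdgf1. The 2 lost ends were 28.6% of the ends covered at day 10, beside 24.4% of all. With a 2.5 kb window Lin28a and Tdgf1 counted as kept. Utf1, a chromatin factor gene of pluripotent cells, had pileups of 13 at day 12 and 16 at day 10. Dppa5a, which encodes an RNA-binding protein of stem cells, had 12 at day 12 and 19 at day 10, and L1td1, a stem cell gene derived from a LINE-1 element, 16 and 32. Besides, the end of Utf1 was in the lists of days 2, 4 and 6 and of iPSC, that of L1td1 in those of day 2 and iPSC, and both were missing at day 0 and day 8. Sall4, a zinc finger gene of the stem cell and endoderm programmes, had a day 10 pileup of 44 on a local background of 10.3. Dppa4 and Tdgf1 had kept regions away from their ends, with 17 at day 12 and 30 at day 10 for the strongest of Dppa4.

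**Figure D4:**
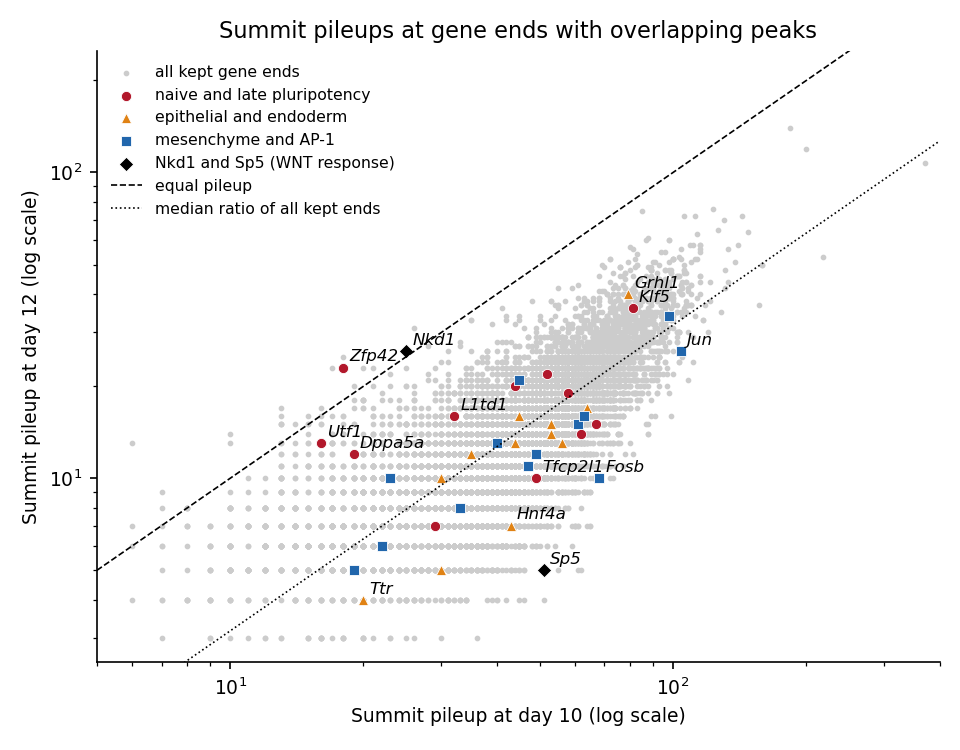
Summit pileup at day 12 (vertical axis, log scale) against day 10 (horizontal axis, log scale) at 9006 gene ends whose peaks overlap between the lists (grey), with members of gene lists coloured. The dashed line marks equal pileup and the dotted line the median ratio of 0.317; Zfp42 (23 at day 12, 18 at day 10) and Nkd1 (26 and 25) lie above equal pileup, and Sp5 (5 and 51) far below the median.

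Epithelial genes, which are switched on when fibroblasts lose their mesenchymal form, had more of their ends lost than genes as a whole. Of 21 genes, 7 ends were kept, 10 were lost and 4 were in neither list, so 58.8% of the ends covered at day 10 were lost, beside 24.4% of all. With day 10 scaled to the day 12 background it was 5 of 12, beside 18.5% of all. The lost ends had day 10 pileups of 12 to 39, led by Grhl2, a master regulator of epithelium (39), Cldn4 (37), the keratin gene Krt19 (33) and the desmosome gene Dsp (25). Of the 10, 9 were covered at day 8 and 8 in iPSC. The kept ends had higher day 10 pileups, 30 to 79. Cdh1, the gene of E-cadherin, had 15 at day 12 and 53 at day 10, Epcam, an epithelial adhesion gene, 13 and 44, and Ocln, a tight junction gene, 13 and 56. Grhl1, a relative of Grhl2, had 40 at day 12 and 79 at day 10, a ratio of 0.506 at percentile 94.7. Around these genes, 63 of the 83 regions of day 10 assigned to an epithelial gene were lost (75.9%, 65.3 to 84.6), beside 60.8% for all genes. Other lists had similar shares, with 75.9% for mesenchyme genes, 75.8% for primed and formative genes, 78.9% for haematopoietic and 73.7% for endothelial markers.

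Genes of extraembryonic endoderm, a programme of the intermediate cells, also had lost ends. Of 18 genes, 5 ends were kept, 7 were lost and 6 were in neither list. That was 58.3% lost of those covered at day 10, beside 24.4% of all. With day 10 scaled it was 4 of 9, beside 18.5% of all. The lost ends were led by Foxa2 (day 10 pileup 61), Sox17, an endoderm transcription factor gene (37), Sox7, its relative (30) and the basement membrane collagen gene Col4a2 (29). The end of Gata4, a factor gene that drives this programme, was lost from a pileup of 11 and was then also absent from the day 10 list at equal length. The kept ends were those of Gata6 (17 at day 12 and 64 at day 10), the laminin genes Lama1 (14 and 53) and Lamb1 (10 and 30), Hnf4a, a nuclear receptor gene of endoderm (7 and 43), and Ttr (4 and 20). Hnf4a had a ratio of 0.163, at percentile 4.90 of its strength. Of the day 10 regions assigned to these genes 60.4% (51.6 to 68.8) were lost, beside 60.8% for all genes. Kept regions lay near both Foxa2 and Sox17, and with a window of 2.5 kb their ends counted as kept.

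Genes of the retinoid pathway had the highest share of lost ends of the 22 lists, but not of lost regions. Of 14 genes, 1 end was kept (Crabp2), 7 were lost and 6 were in neither list. That was 87.5% lost of those covered at day 10, beside 24.4% of all. With day 10 scaled it was 6 of 7, beside 18.5% of all. The covered ends had a median day 10 pileup of 18, against 37 for all genes. Over all genes, 54.8% of the ends with a day 10 pileup of 15 to 19 were lost. The lost ends were those of Dhrs3, a retinal reductase gene (day 10 pileup 43), the receptor genes Rxrb (36), Rxra (15) and Rxrg (14), Cyp26a1 (33), Aldh1a2, which encodes a retinoic acid-making enzyme (17), and the binding protein gene Crabp1 (9). All 7 were covered in iPSC and 4 at day 8. Those of Cyp26a1 and Dhrs3 counted as kept with a 2.5 kb window. At Cyp26a1 a day 12 peak with a pileup of 13 lay beyond the 3′ end at chr19:37703646-37703813, inside the span of a day 10 peak of 20. At Crabp2 the peaks of the 2 days lay at different places. Of the receptor genes with no covered end, Rara had a kept promoter window inside the gene with 19 at day 12 and 46 at day 10, Rarb one with 19 and 25, and Rarg one with 11 and 27. Of the day 10 regions assigned to retinoid genes 69.1% (55.2 to 80.9) were lost, beside 60.8% for all genes. The kept ones had a median ratio of 0.478, beside 0.342 for all genes. Of these 17, 11 lay above the median of their day 10 strength, which is 64.7% beside 49.6% of all.

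Genes of the primed and formative states, which follow the naive state in the embryo, and genes of DNA methylation lost part of their ends. Of 11 primed or formative genes, 3 were kept (Pou3f1, Dnmt3b and Sox11) and 4 were lost, among them the zinc finger gene Zic2 (day 10 pileup 15), the growth factor gene Fgf5 (10) and Nodal (7). The 4 were 57.1% of the 7 ends covered at day 10, beside 24.4% of all. Ends with such low pileups were often lost over all genes: 54.8% at 15 to 19, 67.9% at 10 to 14 and 82.9% at 6 to 9. Of 12 genes of DNA methylation, 6 were kept and 4 were lost: Tdg, which encodes a glycosylase that removes oxidised methylcytosine (31), the 5-methylcytosine oxidase genes Tet3 (24) and Tet1 (21), and Dnmt3l, a cofactor of the de novo methyltransferases (14). These 4 were lost at equal list length and with day 10 scaled as well. Away from its ends, however, Tet3 had a kept promoter window with 19 at day 12 and 56 at day 10, and Dnmt3l had a promoter window gained with 9 at day 12. Tet2, the third oxidase gene, was kept with 29 at day 12 and 54 at day 10, a ratio of 0.537 at percentile 96.9. Uhrf1, needed to maintain methylation, had 20 at day 12 and 55 at day 10.

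Among fibroblast and mesenchymal genes the lost ends had low peaks at day 10. Of 26 genes, 8 ends were kept, 7 lost and 11 in neither list, though 22 were covered at day 0. The 7 were 46.7% of the ends covered at day 10, beside 24.4% of all. The lost ends had day 10 pileups of 9 to 24, led by the collagen genes Col5a1 (24) and Col5a2 (12), and with Thy1, a fibroblast surface marker, at 10. With day 10 scaled 1 of 7 was lost, Col5a1 (14.3%, beside 18.5% of all). Of the 7 ends lost as deposited, 6 thus had a day 10 peak that did not pass at the day 12 background. Snai2, a mesenchymal transition factor gene, was kept with 16 at day 12 and 63 at day 10, Col1a1 with 8 and 33, and Vim with 21 and 45. Twist1 had 4 at day 12 and 16 at day 10 in peaks that did not overlap, and Prrx1 was in neither list.

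AP-1 factor genes, which drive the fibroblast and stress programmes, kept 7 of 10 ends, lost 2 (Jund and Batf3) and had 1 in neither list. The 2 were 22.2% of the ends covered at day 10, near the 24.4% of all. Fosb had 10 at day 12 and 68 at day 10, a ratio of 0.147 at percentile 1.18 of its strength. Jun had 26 at day 12 and 104 at day 10, and Fosl1 5 and 19. The median ratio of the 7 was 0.250, beside 0.317 of all kept ends. Jund had a day 10 pileup of 62 and counted as kept with a 2.5 kb window.

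Signalling pathways are given by their ends covered at day 10, of which 24.4% were lost over all genes. The lost shares were 3 of 12 for the TGF-beta pathway, which holds the mesenchymal state, 3 of 12 for FGF and ERK, 3 of 11 for WNT response genes and 1 of 8 for LIF and STAT3, the pathway that keeps mouse stem cells undifferentiated. Of the day 10 regions assigned to them, 71.3% (61.0 to 80.1) were lost for WNT, 71.6% (59.9 to 81.5) for TGF-beta, 66.2% for FGF and ERK and 62.7% for LIF and STAT3, beside 60.8% for all genes. Nkd1, a WNT feedback inhibitor gene, had 26 at day 12 and 25 at day 10, a ratio of 1.04 at percentile 99.8, and was covered in each other list but day 0. Sp5, a direct WNT target gene, had 5 at day 12 and 51 at day 10, a ratio of 0.0980 at percentile 0.198. Smad3, a transducer of TGF-beta signals, had 12 at day 12 and 36 at day 10. The end of Spry2, an ERK feedback inhibitor gene, was lost from a day 10 pileup of 62.

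Among trophoblast genes, 4 of 13 ends were kept, Gata3 was gained (day 12 pileup 5) and Cdx2 was lost from a day 10 pileup of 44. The highest day 10 peak of Cdx2 lay beyond the gene's 3′ end. A day 12 peak of 15 overlapped it just outside the 1 kb window, so that Cdx2 counted as kept with 2.5 kb. Day 10 peaks on the start site at chr5:147306994-147307306 (14) and inside the gene at chr5:147304477-147305025 (17) had no day 12 counterpart. The promoter window of Cdx2 was therefore lost. Gata3 also counted as kept with that window.

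Cell cycle and chromatin genes had few lost ends, with 0 of 13 and 1 of 13 of those covered at day 10, beside 24.4% of all. Of 17 cell cycle and p53 genes 13 ends were kept, 0 were lost and 1 was gained, that of Ccnd1 with a day 12 pileup of 3, which counted as kept with a 2.5 kb window. Trp53, the gene of p53, had 11 at day 12 and 65 at day 10, a ratio of 0.169 at percentile 3.11, and Rb1, the retinoblastoma gene, 19 and 31, a ratio of 0.613 at percentile 98.0. Of 17 chromatin regulator genes 12 were kept, Ehmt1 was lost (day 10 pileup 25; kept with a 2.5 kb window) and Setdb1, a histone H3 lysine 9 methyltransferase gene, was gained with a day 12 pileup of 5. The Setdb1 end was also covered at day 8. These lists had high day 10 pileups, with medians of 49 and 43 over their covered ends, against 37 for all genes. Over all genes, 6.73% of the ends with a day 10 pileup of 40 to 59 were lost.

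Housekeeping genes, used in nearly all cells, also had lost ends. Of 16 such genes, 10 were kept, 4 were lost and 2 were in neither list. The lost ends included those of Rplp0, a ribosomal protein gene (day 10 pileup 62), Tbp, the TATA-binding protein gene (35), and Hprt, a purine salvage gene (28). The 4 lost ends were 28.6% of the ends covered at day 10, beside 24.4% of all, and each was lost at equal list length and with day 10 scaled as well. Kept housekeeping ends had a median ratio of 0.228.

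Ends of haematopoietic, muscle and germline genes were mostly uncovered on both days, beside 41.9% of all genes with an end in neither list. Of 12 haematopoietic markers 10 had no covered end on either day, among them Ptprc, Csf1r and Adgre1, while Spi1 was kept (8 at day 12, 35 at day 10) and Cd68 was lost (18 at day 10). Of 10 endothelial markers 4 were kept, 1 was lost and 5 were in neither list, and the counts were the same for 10 neural markers. Of 10 muscle markers 1 was kept, 2 were lost and 7 were in neither list. Of 14 germline and 2-cell genes 2 were kept, Dazl and Prdm1, and 12 were in neither list.

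**Figure D5:**
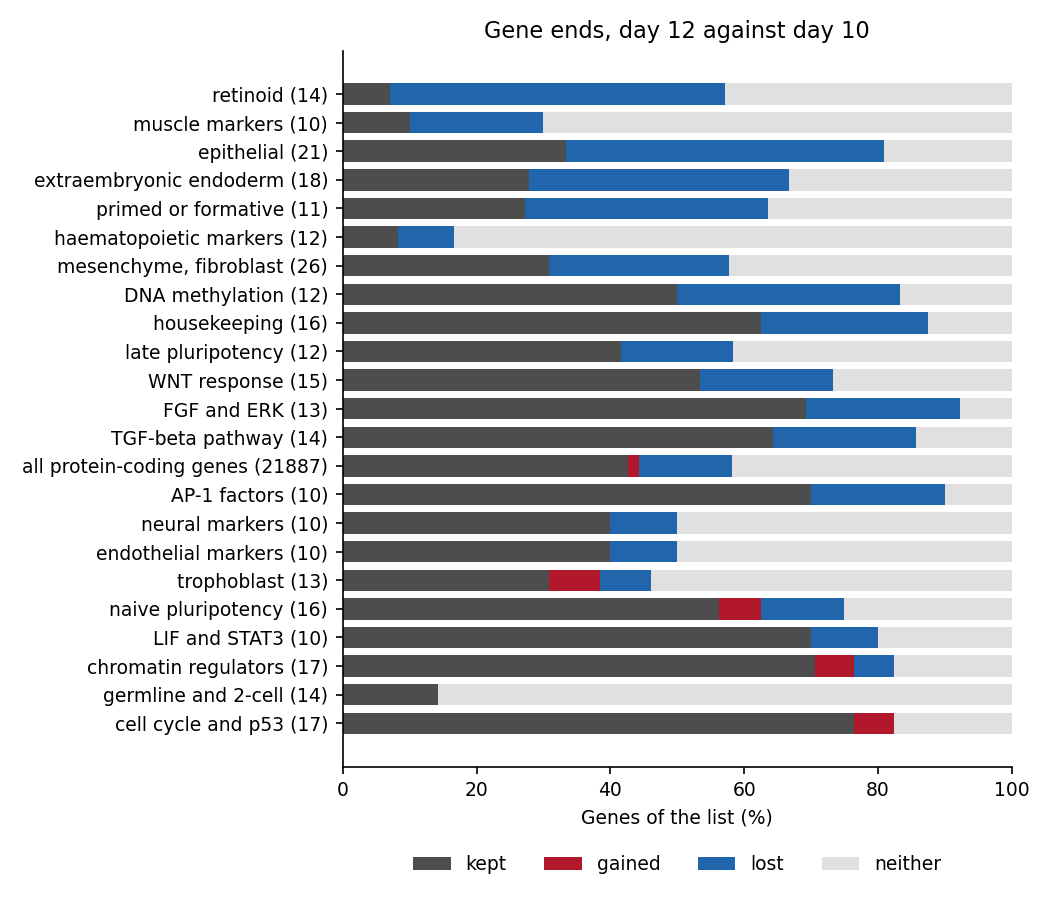
Share of the genes of each list (horizontal axis, percent, number of genes in brackets) with a kept (black), gained (red) or lost (blue) end, or an end in neither list (grey), ordered by the lost share of ends covered at day 10. All protein-coding genes (42.7% kept, 1.69% gained, 13.8% lost) stand among them for comparison.

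MicroRNA genes of stem cells were looked at after the values were seen. Mature strands near a peak are given as RefSeq has them, with the seed, bases 2 to 8, in capitals.
mmu-miR-302b-3p (kept): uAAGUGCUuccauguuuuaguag
mmu-miR-302d-3p (kept): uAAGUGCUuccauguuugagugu
mmu-miR-290a-3p (lost): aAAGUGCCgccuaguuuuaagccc
mmu-miR-200c-3p (lost): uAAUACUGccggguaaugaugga
mmu-miR-141-3p (lost): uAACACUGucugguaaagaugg

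The miR-302 and miR-290 clusters are expressed in early embryonic cells, and miR-200c and miR-141 hold the epithelial state by repressing Zeb1 and Zeb2. The miR-302b and miR-302d strands share a seed, and the seeds of miR-200c and miR-141 differ from it. The miR-302 and miR-367 hairpins on chromosome 3 lie within 1 kb of 1 kept region, with peaks at chr3:127544768-127544979 (pileup 8 at day 12) and chr3:127544649-127545115 (29 at day 10). It was covered at day 8 and in iPSC and on none of days 0 to 6. The day 10 peak by Mir290a, at chr7:3217678-3217891 with a pileup of 31, and that by Mir200c and Mir141, at chr6:124718531-124719041 with 17, had no counterpart at day 12. The Mir290a peak was also in the day 2 and day 8 lists, and the Mir200c peak also in iPSC. Over all 1005 hairpins, 77 were kept, 15 gained and 88 lost.

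The promoter windows of the classes differed in base composition. The median GC share was 62.7% in gained, 62.7% in kept, 59.7% in lost and 49.0% in uncovered windows, and the median ratio of observed to expected CpG was 0.666, 0.811, 0.711 and 0.225. An ETS motif (CCGGAAGT) was found in 0.463% of the 216 gained windows (0.0117 to 2.55), 9.79% of kept, 6.95% of lost and 5.15% of all windows. The CCAAT box was found in 26.9% of gained (21.1 to 33.3), 42.4% of kept and 30.4% of lost windows, beside 38.2% of all. These motifs were picked from all those searched after their values were seen, and the ETS share of gained windows rests on 1 window. The SP motif, also searched, was in 24.1% of gained and 26.3% of kept windows. Windows were available for 17492 of the 21887 genes (79.9%).

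Regions were assigned to the nearest gene within 100 kb. At equal list length, the most lost regions lay by Rad51b, a homologous recombination gene (24 lost, 5 gained, 6 kept), of which 16 of 41 at full length were in the day 8 list and 5 in iPSC. Next came Btbd9 and Atxn1 with 13 each, and then genes with 12 each, among them Sox6, Foxp1 and Hes1. Nearly all were long, from 333 to 852 kb, except Hes1, a Notch target gene of 2.44 kb, where 11 of its 17 lost regions at full length were in the day 8 list. With regions assigned within 20 kb in place of 100 kb, Hes1 had 9 lost and 0 gained regions at full length, against 17 and 3. The most gained regions lay by Fhit (25), Macrod2 (24), Magi2 (17) and Lsamp and Gpc5 (15 each), genes of 1433 to 2197 kb. Sfmbt2, a polycomb-related gene of 225 kb that is imprinted in mice, had 13 gained and 0 kept regions, with day 12 pileups of at most 5 and none of them in iPSC.

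The strongest lost and gained regions were of different kinds. The lost region with the highest day 10 score lay 2013 bp from Dgat2, a triglyceride synthesis gene, at chr7:99151382-99151650, with a pileup of 107 that would be 27.5 at the day 12 background, and it was also in the day 2, day 8 and iPSC lists. The highest-scored lost region at a gene end was by Prpf8, a spliceosome gene, with a pileup of 88 and covered in all 6 other lists. Its score of 777 was above the 666 of the first lost gene end, that of Zfp960, so the end of Prpf8 itself did not count as lost. Of the 10 gained regions with the highest score, 8 were 157 to 211 bp wide, close to the shortest day 12 peak of 157 bp. The first, at chr15:35277447-35277609, had a pileup of 106 and was in none of the 6 other lists. The 5 regions that ranked best in both lists included a region at chr2:98666570-98667313 with pileups of 3541 at day 12 and 7074 at day 10. Its local backgrounds were 151 and 344, against list medians of 0.409 and 1.77. A high-scored gained region nearby, at chr2:98665046-98665208, also had a local background of 151. No regions were removed for such backgrounds, and whether these peaks are open chromatin was not tested.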

How the data were processed

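Per the labels' protocols, nuclei of 2 samples per stage were tagmented and sequenced. The submitters' processing notes name fastp 0.20.1, Bowtie2 2.2.5, SAMtools, MACS2 2.1.2, deepTools 3.4.3 and mm10, with no settings. The authors deposited 1 narrowPeak list per stage, and how the samples were combined is not stated. Each deposited row holds the authors' score (10 times −log10 q, cut to a whole number), fold over the local background and −log10 p-value.

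From fold and −log10 p, summit pileup and local background were recovered under a Poisson model, to within 0.001 of −log10 p. Overlaps, gene ends (1 kb) and nearest genes (within 100 kb) came from the RefSeq GRCm38.p6 gene table, with Python 3.11.15, numpy 2.4.6, pandas 2.3.3, scipy 1.17.1, matplotlib 3.10.9 and bedtools 2.31.1. The scripts were tested on simulated data. Equal length and scaling of day 10 by the ratio of backgrounds were tried as alternatives, with stricter, wider and binned settings.

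Regions, members and the 22 gene lists were chosen with earlier results of these data known. Named genes are a core list of 30, up to 4 lost, gained and kept per list by score, and the extremes of regions; some list members are not reported by name here. Intervals are 95% Clopper-Pearson. Labels give no separate cultures for the 2 samples.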

Additional observations from a re-analysis of the deposited data

Results flagged for a closer look

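The deposited lists also held peaks on sequences other than chromosomes 1 to 19, X and Y, which none of the comparisons used: 50 at day 12 and 53 at day 10. They are listed as a signal in data that the comparisons left aside, and they were not analysed further here.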

How the results depend on the processing

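The excess of lost over gained regions (gained minus lost, −12181) was the result that turned: it was −518 at equal list length, 4073 with day 10 scaled to the day 12 background, −6025 in the better-scored 50% of each list and −72949 in 200 bp bins. Lost regions numbered 16297 at equal length, 12559 scaled, 10384 in the better-scored 50% and 109076 in bins. Gained regions numbered 9402 at q at or under 0.01, 9752 without day 12 peaks of the lowest pileup, 4359 in the better-scored 50% and 36127 in bins, and kept bins 47436. Gene ends gained numbered 743 with day 10 scaled. The share at gene ends was, for kept regions, 50.8% at that q, 50.6% with 50% overlap, 52.0% at equal length, 53.5% scaled and 54.3% with a 2.5 kb window; for gained regions 5.06%, 4.93%, 5.03%, 6.04% and 8.06%, and 5.36% without the lowest pileup; for lost regions 14.5% at that q, 16.3% at equal length, 16.9% scaled and 19.9% with 2.5 kb. With the other lists cut to the day 12 length, gained regions were in the day 0 list in 2.63%, day 8 in 3.65% and iPSC in 7.82%, lost regions in 20.1%, 41.9% and 21.1%, and kept regions in 57.1%, 84.8% and 65.4%. The cause of these shifts was not tested. The higher share kept among regions of iPSC alone than of day 0 alone, chosen after seeing the data, was 40.5% and 22.9% with end-point lists cut, 41.5% and 23.8% at equal length, 45.7% and 27.1% scaled, and 32.9% and 17.3% without the lowest pileup. No paired analysis was possible because the lists hold no values per replicate, so leaving out a replicate was not run either. The depth of day 12 limits what its list can hold. With day 10 scaled to its background, 14710 regions were kept and 12559 were lost. As deposited 16557 were kept, so some day 10 peaks that did not pass when scaled were still found at day 12. How far depth accounts for the lost regions was not tested.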
